A study of Homo sapiens with 6 samples.

Results

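The cornified envelope genes examined here were LCE3A, LCE3C, LCE3D, LCE3E, IVL, SPRR1A and SPRR1B, 7 of the 25737 entries counted in each library. They were found by gene symbol, and they were chosen by their measured scaled counts at 0, 1 and 5 ng/mL TGF-β1 in both cell lines. The values below are therefore descriptions and carry no test. The libraries hold total RNA from A549, a human lung carcinoma epithelial line, and BEAS-2B, a human bronchial epithelial line, both given as wild type. Treated cells received TGF-β1 for 48 h in medium with 1% serum. Both lines were maintained in 10% serum, and which of these the untreated cells had during the 48 h is not stated. Each of the 6 conditions had 1 library, so nothing measures the spread between cultures.

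The cornified envelope is the insoluble protein shell that replaces the plasma membrane of a terminally differentiated keratinocyte. Involucrin, the product of IVL, is laid down early as a scaffold, and small proline-rich proteins (SPRR) and late cornified envelope proteins (LCE) are then joined to it by transglutaminases. Most of these genes lie side by side in the epidermal differentiation complex on chromosome 1. The LCE3 group is best known from skin, where it is associated with injury and psoriasis, and the SPRR and IVL genes are also used in squamous metaplasia of the airway.

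Only 3 of the 7 genes were detected. LCE3D and LCE3E had 158 to 632 counts in A549 cells given TGF-β1, IVL was read at a low level in BEAS-2B cells given TGF-β1, and all 7 genes were at 0 in both untreated libraries. LCE3A, LCE3C, SPRR1A and SPRR1B were at 0 in all 6 libraries. Of the 42 values, 33 were 0.

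The upstream bases of the genes that were read are shown first, since the expressed pair and its neighbor LCE3C, which was at 0, share part of them. RefSeq holds an entry for all 7 genes on GRCh38.p14, and each stretch ends at the base before the annotated transcription start. In LCE3D and LCE3E, both on the minus strand, capitals mark runs of at least 12 bases that are identical in the pair. LCE3D is given from chr1:152580517-152580766 and LCE3E from chr1:152566781-152567030. LCE3C, on the plus strand, is given for the last 120 bases, chr1:152600114-152600233, with capitals for runs of at least 8 bases identical to LCE3D.
LCE3D: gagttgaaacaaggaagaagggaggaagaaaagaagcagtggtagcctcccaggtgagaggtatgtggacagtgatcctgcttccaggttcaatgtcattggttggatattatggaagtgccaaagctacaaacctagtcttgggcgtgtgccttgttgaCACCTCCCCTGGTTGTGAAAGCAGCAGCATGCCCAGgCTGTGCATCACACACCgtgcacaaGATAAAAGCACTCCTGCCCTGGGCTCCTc
LCE3E: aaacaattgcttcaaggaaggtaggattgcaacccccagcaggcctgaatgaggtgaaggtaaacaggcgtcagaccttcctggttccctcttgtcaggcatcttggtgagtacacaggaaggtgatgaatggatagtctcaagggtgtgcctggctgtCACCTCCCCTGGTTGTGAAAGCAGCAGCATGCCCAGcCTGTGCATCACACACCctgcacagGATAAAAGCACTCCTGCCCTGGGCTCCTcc
LCE3C: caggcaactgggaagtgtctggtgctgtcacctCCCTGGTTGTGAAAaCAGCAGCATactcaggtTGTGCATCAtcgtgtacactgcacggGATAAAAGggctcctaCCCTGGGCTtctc
The LCE3D and LCE3E stretches of 250 bases were 68.2% identical over 267 aligned columns, with 80 bases in 3 shared runs, the longest of 36 bases. The likeness lay close to the start. The nearest 100 bases were 92.1% identical and the farther 150 bases 52.7%. LCE3C was 77.1% identical to LCE3D in the nearest 100 bases and 45.7% in the farther 150 bases.

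IVL and both SPRR1 genes hold the 7-letter word TGANTCA, the sequence recognized by AP-1 factors, in their 250 upstream bases. It was searched on both strands, and 6.57% of 35116 RefSeq promoters of that length hold it. In the IVL stretch, plus strand, chr1:152908296-152908545, the word stands in capitals and begins 123 bases before the start. For SPRR1A, chr1:152983962-152983991, and SPRR1B, chr1:153031051-153031080 and chr1:153031081-153031110, all on the plus strand, windows of 30 bases are enough to show it.
IVL: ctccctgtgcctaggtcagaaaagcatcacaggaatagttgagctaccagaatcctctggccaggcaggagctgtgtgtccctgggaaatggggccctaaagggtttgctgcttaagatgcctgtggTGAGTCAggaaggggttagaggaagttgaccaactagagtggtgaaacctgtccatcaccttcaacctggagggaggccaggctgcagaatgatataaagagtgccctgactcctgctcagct
SPRR1A: ggatggtagtgTGAGTCAtgtgtgacaggt
SPRR1B, first: atcacaaaagtTGAGTCAacaggtgggtga
SPRR1B, second: gggaagaggggTGAATCAcatctgacaggt
None of the 4 LCE3 genes held TGANTCA in this window. IVL was read in BEAS-2B, whereas SPRR1A and SPRR1B, which hold the same letters, were at 0 in every library. Other words were searched in the same window. CAGAC, a word of SMAD factors, stood in LCE3A, LCE3C, LCE3E, SPRR1A and SPRR1B but not in LCE3D or IVL, and 38.0% of promoters hold it. TATAAA stood in IVL and SPRR1A (10.7% of promoters). CACCC stood in LCE3A, LCE3E, SPRR1A and SPRR1B (54.7%). A word in a promoter is a description of letters and no measure of binding.

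Total counts ran from 4120624 to 7841350. Counts were scaled to a common library size, and a normalized count is given on that scale. A count of 0 allows up to 3 counts, or 2.06 to 3.78 normalized counts depending on the library, and all intervals are exact 95% intervals that cover counting error only. A gene was called higher when its normalized count plus 1 was at least 2 times that of the other library and its normalized log2 value, log2 of the normalized count plus 1, reached 7 in at least 1 of the 2 libraries. This minimum is a normalized count of 127. Of 5 TGF-β response genes, such as FN1 and COL1A1, 4 were called higher at both doses in A549 and 5 in BEAS-2B. Of 10 alveolar and airway markers, 5 were at 0 in all libraries (SFTPA1, SFTPA2, SFTPC, SCGB1A1 and SCGB3A2) and the other 5 had at most 10 counts, that of SFTPD in A549 at 5 ng/mL. CDH1, which encodes E-cadherin, had 640, 30 and 8 counts in A549 at 0, 1 and 5 ng/mL and was called lower at both doses, and it had at most 2 counts in any BEAS-2B library.

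LCE3D encodes a late envelope protein rich in glycine, serine and cysteine. In A549 cells it had 0 counts without TGF-β1, 289 at 1 ng/mL and 632 at 5 ng/mL. In BEAS-2B cells the counts were 0, 2 and 1 at the same doses. On the normalized scale the A549 libraries held 199 (interval 176 to 223) at 1 ng/mL and 573 (530 to 620) at 5 ng/mL. The treated A549 libraries stood far above all others, which were at or under 3 counts.

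Against the untreated A549 library LCE3D was at least 57.1-fold higher at 1 ng/mL and at least 165-fold higher at 5 ng/mL. These bounds set the control at its 3 allowed counts and take the treated count as exact. The lower ends of the exact intervals were 46.2 and 134. From 1 to 5 ng/mL the level rose 2.89-fold (2.51 to 3.33). At equal dose the ratio of A549 to BEAS-2B was 88.2 (24.2 to 732) at 1 ng/mL and 455 (81.4 to 18009) at 5 ng/mL, wide because BEAS-2B gave 2 reads and 1 read.

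LCE3E, the gene next to LCE3D, showed no read in untreated A549 cells, 158 counts with 1 ng/mL and 463 with 5 ng/mL. It had 0 counts in all 3 BEAS-2B libraries. The normalized counts in A549 were 109 (92.3 to 127) at 1 ng/mL and 420 (383 to 460) at 5 ng/mL. The interval at 1 ng/mL ended near the minimum of 127, and the value itself lay under it.

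Relative to the untreated A549 library, LCE3E was at least 31.2-fold higher at 1 ng/mL and at least 121-fold higher at 5 ng/mL, with interval lower ends of 25.1 and 97.9. The step from 1 to 5 ng/mL was 3.87-fold (3.22 to 4.67). Compared with BEAS-2B at the same dose, A549 was at least 32.2-fold higher at 1 ng/mL and at least 111-fold higher at 5 ng/mL. The order of the conditions was thus A549 at 5 ng/mL, then A549 at 1 ng/mL, then all other libraries, for LCE3E and for LCE3D. Each of these steps was larger than its counting interval, and the remaining libraries could not be ordered at this depth.

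Between the 1 and 5 ng/mL libraries of A549, the rise in assigned reads differed between the pair beyond counting error. The split of reads between the 2 genes is itself uncertain. LCE3D made up 64.7% (60.0 to 69.1) of the summed LCE3D and LCE3E counts at 1 ng/mL and 57.7% (54.7 to 60.7) at 5 ng/mL. The rise of LCE3E was 1.34 times that of LCE3D (1.06 to 1.70), a ratio that needs no library scaling. With 1 library per dose this compares libraries and not doses. Their annotated transcripts are nearly equal in length, 613 and 611 bases. The libraries read from the 3′ end, so the shares are shares of reads and not shares per length.

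**Figure D1:**
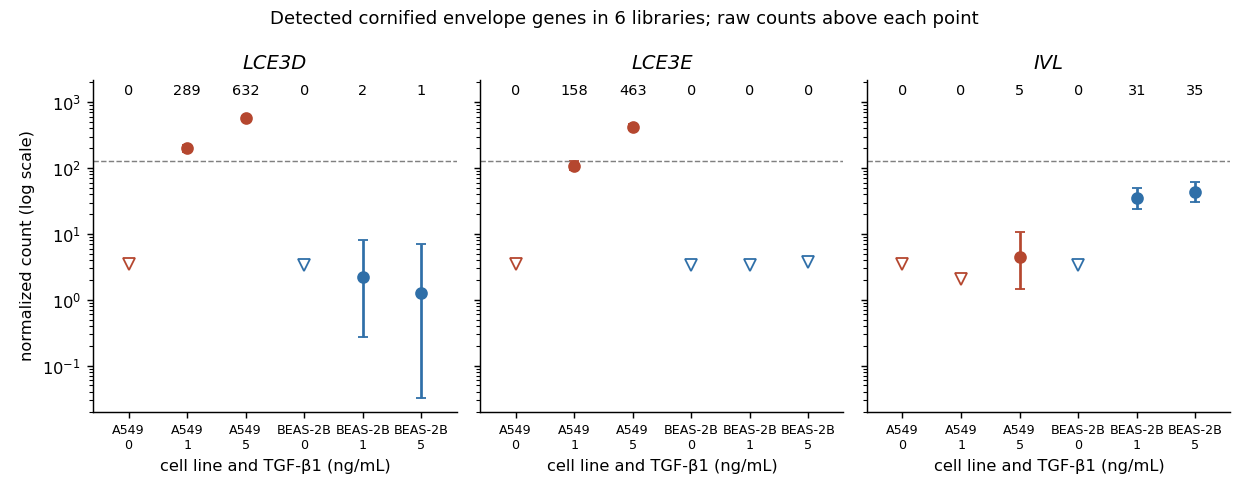
Normalized counts (log scale) of LCE3D, LCE3E and IVL in the 6 libraries by cell line and TGF-β1 dose, A549 in red and BEAS-2B in blue, with exact 95% Poisson intervals and raw counts printed above. Open triangles show the 3 counts that a count of 0 allows, and the dashed line is the minimum of 127. LCE3D and LCE3E stand high only in treated A549, while IVL is highest in treated BEAS-2B and stays under the line.

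IVL encodes involucrin. In BEAS-2B cells it had 0, 31 and 35 counts at 0, 1 and 5 ng/mL, and in A549 cells 0, 0 and 5 counts. The normalized counts in treated BEAS-2B were 34.9 (23.7 to 49.5) and 44.1 (30.7 to 61.3), and that in A549 at 5 ng/mL was 4.54 (1.47 to 10.6). The treated BEAS-2B libraries were therefore the high ones.

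The IVL bounds against the untreated BEAS-2B library were at least 10.4-fold higher at 1 ng/mL and at least 13.2-fold higher at 5 ng/mL, with interval lower ends of 7.98 and 10.2. The 2 doses did not differ beyond counting error, with a ratio of 1.26 (0.757 to 2.12). In A549 the 5 counts at 5 ng/mL gave a bound of at least 1.31-fold over the untreated library, and the interval reached down to 0.718. A549 held 0.103 (0.0315 to 0.264) of the BEAS-2B level at 5 ng/mL. The order was BEAS-2B at both doses, not separable from each other, then A549 at 5 ng/mL, which was 7.69-fold (2.96 to 25.3) under BEAS-2B at 1 ng/mL.

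**Figure D2:**
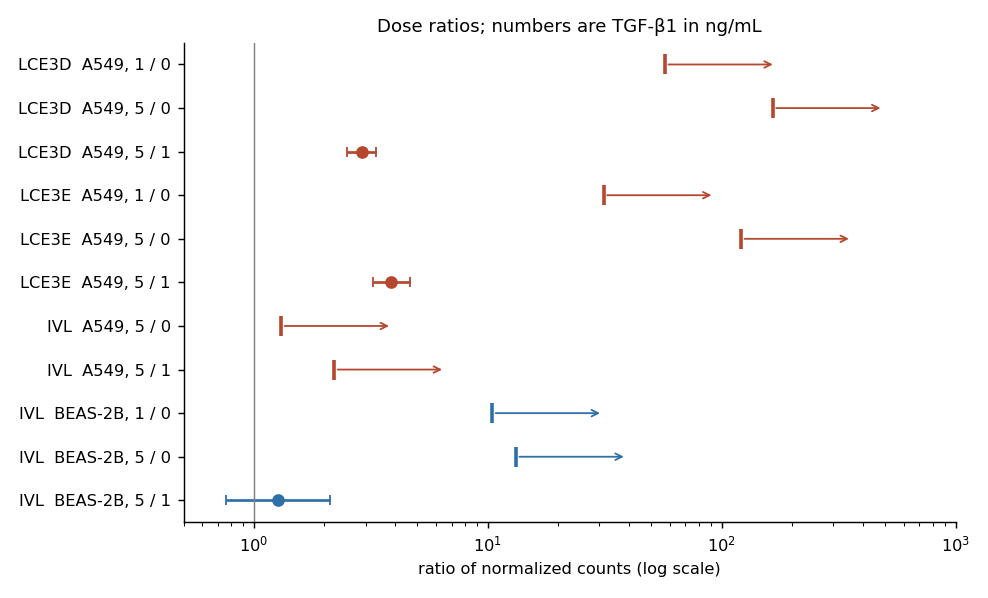
Ratios of normalized counts between doses (log scale) for each gene and cell line with more than 3 counts in a library, A549 in red and BEAS-2B in blue. Points carry exact 95% intervals, and vertical marks with arrows are lower bounds against a library at 0. The 5 to 1 ng/mL ratio is 2.89 for LCE3D and 3.87 for LCE3E in A549, and the interval of IVL in BEAS-2B spans 1.

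Under the rule above, 2 members were called higher in A549 at 5 ng/mL, LCE3D and LCE3E, where 16.1% of all genes tested were called higher. In A549 at 1 ng/mL, 1 member was called, LCE3D, with 10.9% of all genes. In BEAS-2B the number was 0 at 5 ng/mL and 0 at 1 ng/mL, against 7.33% and 5.66% of all genes. Between the doses, 2 members were called in A549 (all genes 1.61%) and 0 in BEAS-2B (0.492%). The shares are of genes that reached the minimum. In A549 the members that reached it numbered 2 at 5 ng/mL, 1 at 1 ng/mL and 2 between the doses. In BEAS-2B 0 members reached it, so the 0 calls there were fixed by the minimum. The untreated lines gave 0 (18.9%), since no member was read in either. These contrasts chose the members, so the shares are printed as background and nothing is read from them.

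The nearest values on either side of the minimum were LCE3D in A549 at 1 ng/mL, with a normalized log2 value of 7.64, and LCE3E in the same library, with 6.78. Lowering the minimum to 5 added LCE3E in A549 at 1 ng/mL, where 11.4% of all genes were called higher. It added IVL in BEAS-2B at 5 ng/mL (8.72%) and at 1 ng/mL (7.24%), with normalized log2 values of 5.49 and 5.17.

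Entries at 0 without TGF-β1 that reached the minimum with it were listed for each line. The untreated A549 library held 9425 entries at 0, of which 1069 were above 0 at 5 ng/mL and 4 reached the minimum, namely IGFL1, LCE3D, COL22A1 and LCE3E in falling order. At 1 ng/mL, 3 reached it, IGFL1, COL22A1 and LCE3D. In BEAS-2B 11021 entries were at 0 without TGF-β1, and those that reached the minimum at 5 ng/mL were the 3 genes ITGA11, C4orf26 and MAF, with IVL not among them. These names were found after the values were seen. The members were chosen by these same values, so their place in the lists is a description and nothing is read from it.

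Reads from near-identical genes can be counted under the wrong name, and the pair was compared for this. The coding parts of LCE3D and LCE3E, each of 279 bases, were 97.1% identical in the GENCODE transcripts, while the last 300 bases were 86.2% identical. The library kit reads from the 3′ end of the transcript. Of the 50-base words of LCE3D, 14.0% occurred exactly in another transcript, in each case LCE3E, but in the last 300 bases the number was 0 of 251. With 75-base words it was 9.83% over the whole transcript and 0 of 226 at the end. IVL shared 0 words with any other transcript.

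The read length and the treatment of multiply aligned reads are not given in the sources used here, so the split between LCE3D and LCE3E stays uncertain and their sum is the safer value. The sum of the pair was 0, 447 and 1095 counts in A549 at 0, 1 and 5 ng/mL. LCE3D against LCE3A and LCE3C was 81.4% and 87.0% identical in the coding part. The GENCODE models of LCE3A and SPRR1A have 0 bases after the coding part, where a 3′ read would fall, and that of LCE3C has 70. The numbers were 277 in LCE3D, 276 in LCE3E, 331 in IVL and 285 in SPRR1B. Whether the annotation behind the counts has the same gaps is not given. A 0 for LCE3A, LCE3C or SPRR1A therefore says only that no read was assigned.

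In GENCODE on GRCh38 the genes stand on chromosome 1 at chr1:152565654-152566772 (LCE3E), chr1:152579381-152580504 (LCE3D), chr1:152600662-152601086 (LCE3C), chr1:152622834-152623103 (LCE3A), chr1:152908545-152911886 (IVL), chr1:152985231-152985500 (SPRR1A) and chr1:153031202-153032900 (SPRR1B). LCE3A, LCE3D and LCE3E are on the minus strand and the others on the plus strand, and 0 annotated genes overlap each of them. LCE3D, LCE3E, IVL and SPRR1B have 2 exons, and the models of the others have 1. The counts were made on hg19, so a position here locates the gene and does not bound the interval that was counted.

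The complex holds 45 counted genes outside the S100 family, and 29 of them were at 0 in all libraries. A count of at least 10 was reached by 5, and the minimum by 2, LCE3D and LCE3E. The genes next to the pair were at or near 0. LCE3C and LCE3B, next in order beyond LCE3D, were at 0 in every library, as was LCE3A behind them. On the other side, CRCT1, a small cysteine-rich gene, had 0, 2 and 8 counts in A549 and 0 in BEAS-2B, and LCE5A had 2 counts in A549 at 5 ng/mL alone.

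Farther along the complex, PRR9, a proline-rich gene, had 0, 4 and 35 counts in A549 at 0, 1 and 5 ng/mL and 0 in all BEAS-2B libraries. It was at least 9.14-fold higher at 5 ng/mL than in the untreated library set at 3 counts, with an interval lower end of 7.05. Against 1 ng/mL it was 11.6-fold (4.13 to 44.8) higher. LOR, which encodes loricrin, the main protein of the epidermal envelope, had 5 counts in A549 at 1 ng/mL and 0 elsewhere. FLG, the filaggrin gene, had at most 3 counts. PRR9 and CRCT1 were singled out after their values were seen.

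**Figure D3:**
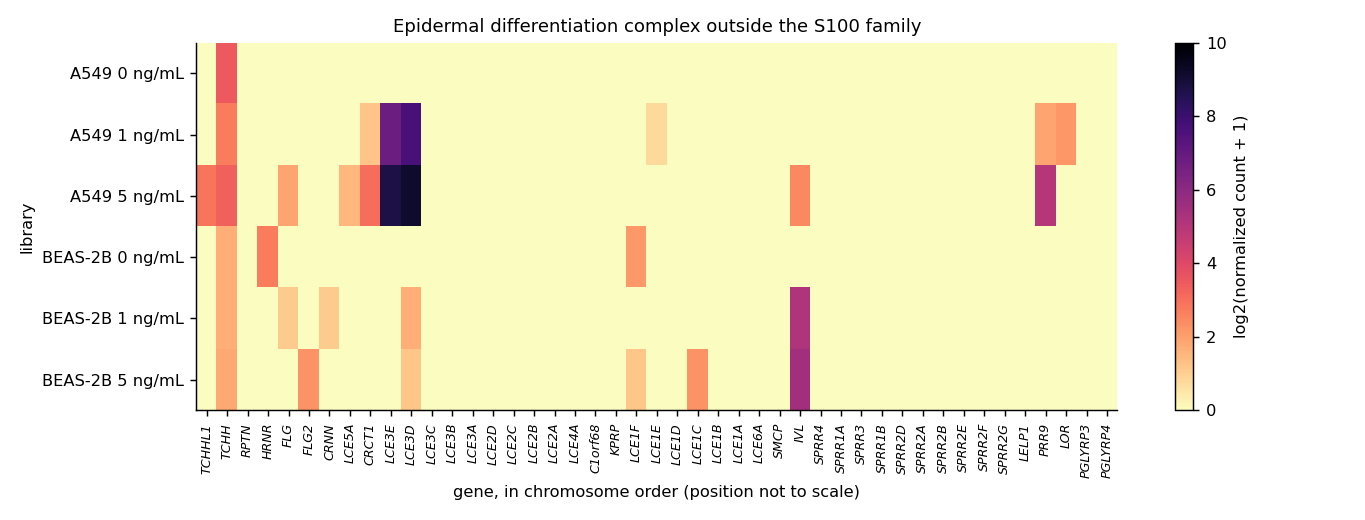
Log2 of the normalized count plus 1, as color, for the 45 counted genes of the epidermal differentiation complex outside the S100 family, in chromosome order and not to scale, in each of the 6 libraries. The dark cells are LCE3E and LCE3D in A549 at 1 and 5 ng/mL, and weaker cells mark IVL in treated BEAS-2B and PRR9 in A549 at 5 ng/mL.

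The closest relatives had few reads or none. Of the 14 other LCE genes, 10 were at 0 in all libraries, and LCE1C, LCE1E, LCE1F and LCE5A had at most 3 counts in any library. The other 8 SPRR genes were all at 0. Of the 10 counted genes among loricrin, filaggrin and the related fused genes, 3 were at 0 throughout and 1, TCHH, reached 10 counts, with 9, 8 and 10 in A549 and 2 in each BEAS-2B library. Among 8 proteases and inhibitors of scale shedding, 7 were at 0, and KLK7 had 1 count in each treated A549 library.

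The transglutaminases join envelope proteins. TGM1, the keratinocyte enzyme of the envelope, had at most 7 counts, and TGM3 and TGM5 at most 4. TGM2, the tissue transglutaminase, was abundant, with normalized counts of 2120, 3967 and 3244 in A549 and 207, 1130 and 1073 in BEAS-2B at 0, 1 and 5 ng/mL. It was called higher in BEAS-2B at both doses, 5.45-fold (4.65 to 6.40) at 1 ng/mL and 5.17-fold (4.41 to 6.10) at 5 ng/mL. In A549 the ratios were 1.87 and 1.53, and TGM2 was not called.

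Of 7 plakins and other envelope proteins, only 1, DSP, reached the minimum in a control comparison, and it was not called. The others lay under the minimum and could not be called, whatever their change. DSP, the desmosomal plaque protein desmoplakin, was the highest, with normalized counts of 1595, 1539 and 1776 in A549 and 1025, 1598 and 1880 in BEAS-2B. EVPL, which encodes envoplakin, had 63.7, 68.7 and 124 in A549 and 36.8, 24.8 and 10.1 in BEAS-2B, all under the minimum. Its ratio at 5 ng/mL to control was 1.95 (1.42 to 2.72) in A549 and 0.274 (0.109 to 0.605) in BEAS-2B. PPL, its partner periplakin, had 75, 0 and 7 counts in BEAS-2B at 0, 1 and 5 ng/mL, and 9, 16 and 2 in A549. At the same doses CSTA had 15, 4 and 0 counts in A549 and 2, 8 and 7 in BEAS-2B. PI3 had 36, 12 and 9 in A549 and 0, 2 and 1 in BEAS-2B. Of 7 enzymes of the envelope lipids, 2 were at 0 throughout and 0 reached the minimum, and ELOVL4 had the highest count, 38 in A549 at 1 ng/mL.

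Of 10 squamous keratins, 5 were at 0 throughout. KRT10, the keratin of suprabasal epidermis, was the highest, and it was called lower in A549 at both doses, with normalized counts of 1045, 427 and 334 at 0, 1 and 5 ng/mL. In A549 at 5 ng/mL 17.1% of all genes were called lower, and 12.6% at 1 ng/mL. BEAS-2B held 278, 297 and 348. KRT4 had 45 counts in untreated A549 and at most 1 in any other library, and KRT6A had 23 in A549 at 1 ng/mL.

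Genes of the skin surface were counted as markers of other cells. KRT1, KRT2, KRT14, KRTDAP and DCD were at 0 in all 6 libraries and KRT5 had 1 count in all. DMKN, which encodes dermokine, had 39, 70 and 61 counts in A549 and 2, 16 and 1 in BEAS-2B at 0, 1 and 5 ng/mL, a ratio of 8.07 (1.90 to 72.4) at 1 ng/mL to control in BEAS-2B. The summed normalized count of the list ran from 392 to 1090 in A549 and from 280 to 353 in BEAS-2B, most of it KRT10. Without KRT10 the sums were 45.2, 51.5 and 58.1 in A549 and 2.23, 20.3 and 5.04 in BEAS-2B.

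The libraries with LCE3D and LCE3E also differed from the untreated A549 library in other cell markers. KRT8, a simple epithelial keratin, was called lower at both doses, with normalized counts of 7081, 1913 and 1626 at 0, 1 and 5 ng/mL. KRT7 was called higher, with 4024, 14155 and 17495. It was also called higher in BEAS-2B, 2.81-fold at 1 ng/mL and 2.46-fold at 5 ng/mL. KRT18, with 16906, 9228 and 8818 in A549, was not called. In A549 KRT19 had 41, 22 and 9 counts and EPCAM 49, 7 and 2, under the minimum. Over all genes in A549, 16.1% were called higher and 17.1% lower at 5 ng/mL, and 10.9% and 12.6% at 1 ng/mL. Of 10 blood, endothelial and fibroblast markers, CD3E, VWF and CDH5 were at 0 in all libraries. The summed normalized count of that list was 13.9, 70.8 and 20.0 in A549 at 0, 1 and 5 ng/mL and 3.38 to 12.6 in BEAS-2B. DCN, the fibroblast proteoglycan decorin, had 2, 53 and 6 counts in A549, LUM had 0, 15 and 9, and PDGFRA had 8, 22 and 5. The part of these markers in the member values was not tested. In bulk RNA, more cells that express a gene and more RNA per cell cannot be told apart.

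Among 12 regulators of squamous differentiation, GRHL3, ZNF750 and OVOL1 were at 0 in all libraries. JUNB, a subunit of AP-1, was called higher in A549 at 5 ng/mL and in BEAS-2B at both doses. The call in A549 was lost when counts were scaled by total counts only, with a fold change of 1.90. Its normalized counts were 429, 721 and 938 in A549 and 306, 801 and 914 in BEAS-2B at 0, 1 and 5 ng/mL. MAF, a regulator of late epidermal differentiation, had 0, 95 and 145 counts in BEAS-2B and 1, 31 and 79 in A549. It was called higher in BEAS-2B at 5 ng/mL, at least 54.6-fold over a control set at 3 counts, with an interval lower end of 43.8. In A549 MAF did not reach the minimum, and its ratio to control was 18.4 (3.06 to 749) at 1 ng/mL and 61.9 (10.8 to 2474) at 5 ng/mL.

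FOSL1, another AP-1 subunit, was called lower in BEAS-2B at 5 ng/mL, with normalized counts of 164, 86.6 and 61.7, where 11.6% of all genes were called lower. In A549 it had 46.3, 37.1 and 34.5. PRDM1, a repressor active in the granular layer, had 9, 23 and 61 counts in A549, a ratio of 5.31 (2.62 to 12.2) at 5 ng/mL to control, and 7, 0 and 13 in BEAS-2B. KLF4, a regulator of the skin barrier, had 16, 8 and 1 counts in A549 and at most 1 in BEAS-2B.

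**Figure D4:**
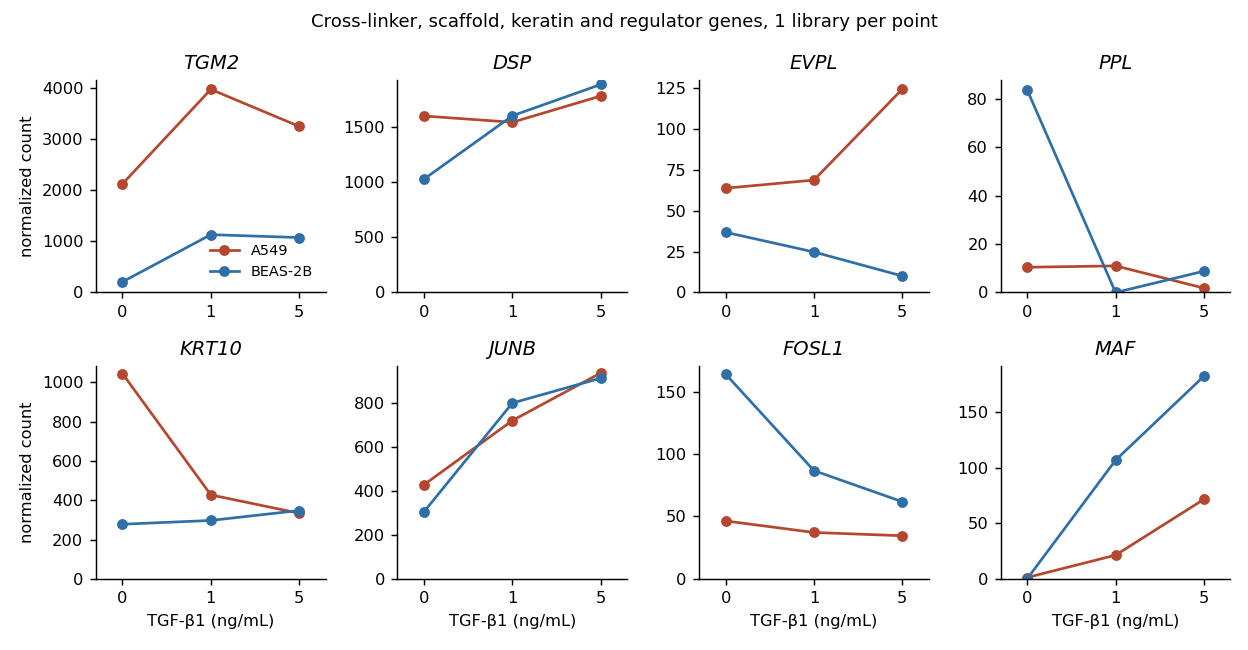
Normalized counts, 1 library per point, of the cross-linker gene TGM2, the scaffold genes DSP, EVPL and PPL, the keratin gene KRT10 and the regulators JUNB, FOSL1 and MAF at 0, 1 and 5 ng/mL TGF-β1, A549 in red and BEAS-2B in blue. Each panel has its own vertical axis from 0. JUNB and MAF are higher in the treated libraries of both lines, KRT10 is lower in treated A549, and FOSL1 is lower in treated BEAS-2B.

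Over the 6 libraries, the log2 patterns of LCE3D and LCE3E correlated with r = 0.986, and those of LCE3D and IVL with r = -0.0980. All points share the same libraries and scaling, and no p is given. Among 8157 other genes, those most like the mean LCE3D and LCE3E pattern were OTUB2 (r = 0.998), RAET1G (0.995), S100A13 (0.994), MGMT (0.993) and CTPS1 (0.992). Their levels were not 0 in the untreated libraries. OTUB2, a deubiquitinase gene, had normalized counts of 38.2, 133 and 167 in A549 and 34.6, 42.8 and 41.6 in BEAS-2B at 0, 1 and 5 ng/mL. S100A13, a calcium-binding protein gene at the far end of the same complex, had 474, 1849 and 1609 counts in A549 and 543, 600 and 476 in BEAS-2B.

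For IVL, SPRR1A and SPRR1B, whose mean pattern is that of IVL alone, the most similar genes were HDLBP (r = 0.997), IWS1 (0.987), ASNSD1 (0.979), HMGXB3 (0.977) and VHL (0.975). HDLBP, which encodes the RNA-binding protein vigilin, had normalized counts of 1885, 1880 and 2493 in A549 and 1937, 3381 and 3731 in BEAS-2B at 0, 1 and 5 ng/mL. A correlation is blind to size, and these levels changed by far less than that of IVL.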

How the data were processed

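Total RNA of 6 cell cultures, 1 per condition, was made into libraries with the Lexogen QuantSeq 3′ kit. The values deposited by the authors are raw read counts per gene symbol, whole numbers without normalization, for 25737 entries in every library. The submitters' processing notes name Bowtie2, bedtools and the hg19 build. The read length, the annotation and the strand setting of the counting are not given in the sources used here.

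Counts were scaled with TMM factors of edgeR 4.0.16 (R 4.3.3) over the 6 libraries, and the normalized count is the count over its effective size times the mean effective size. Total counts ran from 4120624 to 7841350, which sets the 3 counts behind a 0 at 0.383 to 0.728 CPM. A call needed a fold change of at least 2 with a pseudocount of 1 and a normalized log2 value that reached 7 in 1 or both of the libraries compared. With 1 library per condition no test was run. Ratios carry exact 95% Clopper-Pearson intervals and single counts exact Poisson intervals. The intervals were computed with scipy 1.17.1 in Python 3.11.15, tables with pandas 2.3.3 and numpy 2.4.6, and plots with matplotlib 3.10.9. DESeq2 1.42.0 gave an alternative scaling. The steps were tested on simulated counts with counting error only and changes set in well-expressed genes. That simulation covers neither the spread between cultures nor changed genes at or near 0 in a control.

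The members, gene lists and calls were chosen with earlier results of these data known. Named genes were the members, the called and the highest genes of each list, and the 5 most similar genes per pattern by Pearson's r. Other named genes were chosen after their values were seen. Promoter sequences came from RefSeq on GRCh38.p14 and transcripts from GENCODE on GRCh38. The miRNA and protein experiments of the study were not analysed here.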

Additional observations from a re-analysis of the deposited data

How the results depend on the processing

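The counts of members called higher were computed under 14 alternative settings, except TMM within each cell line for the untreated comparison, where the lines share no scale. Single members and lists had no summed units, the order of the conditions was run under 5 scalings or filters, and the most similar genes under 2 settings. The order kept 5 neighbor steps beyond counting error in each. The A549 log2 ratio of 5 to 1 ng/mL ran from 1.49 to 1.57 for LCE3D and from 1.90 to 1.98 for LCE3E. Against a control at 0 the log2 ratio depends on the pseudocount, and for LCE3D in A549 at 5 ng/mL it ran from 6.85 to 12.49. The scaling, the filter on at least 10 counts and thinning to the smallest total left the number of members called higher as reported in every comparison. Requiring the minimum in both libraries gave 0 members in A549 at 5 ng/mL, 0 at 1 ng/mL and 1 between doses, since every control was at 0 and LCE3E at 1 ng/mL lay under the minimum. A minimum of 5 gave 1 member in BEAS-2B at 5 ng/mL, 2 in A549 at 1 ng/mL and 1 in BEAS-2B at 1 ng/mL. No minimum gave 2 in each of these. LCE3D in BEAS-2B was then called on 1 read at 5 ng/mL and 2 reads at 1 ng/mL, against 0. A fold change limit of 3 gave 1 between doses in A549. With the LCE3 genes summed and the SPRR1 genes summed, the number in A549 at 5 ng/mL was 1 and between doses 1, as the pair became 1 unit. Listed pathway genes called, higher or lower, numbered 2 in A549 and 4 in BEAS-2B with 5 ng/mL. With 1 ng/mL they numbered 1 in A549 and 2 in BEAS-2B. Of these, KRT10 in A549 at both doses and FOSL1 in BEAS-2B at 5 ng/mL were called lower, and the others higher. A minimum of 5 gave 6 in A549 and 6 in BEAS-2B at 5 ng/mL, and 3 in A549 and 4 in BEAS-2B at 1 ng/mL. Without a minimum these were 24 in A549 and 17 in BEAS-2B at 5 ng/mL, and 18 and 19 at 1 ng/mL. With a fold change limit of 3 they were 1 in A549 and 2 in BEAS-2B at 5 ng/mL, and 0 and 1 at 1 ng/mL. A limit of 1.5 gave 3 in A549 and 4 in BEAS-2B at 1 ng/mL, total counts gave 1 in A549 at 5 ng/mL, with JUNB lost, and the minimum in both libraries gave 2 in BEAS-2B at 5 ng/mL. Shares over all genes were not computed for most of these settings, so nothing is read from these counts of members or listed genes. Of the 5 genes most like LCE3D and LCE3E, 3 were among the 5 with total counts. Of those most like IVL, 2 were with a pseudocount of 5 and 1 with total counts, and the cause was not tested. No paired analysis was possible because each condition had 1 library and the labels give no replicate numbers. Ratios between libraries cover counting error only, and a gene at 0 may be expressed under 3 counts per library.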
